A study of Mus musculus with 2 samples.

Results

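Arginase and polyamine metabolism was examined through 10 genes: the arginases Arg1 and Arg2, the polyamine synthesis genes Odc1, Amd1, Srm and Sms, the breakdown genes Sat1 and Smox, and the regulators Oaz1 and Azin1. The set was chosen by the high ratio of Arg1 seen earlier in these data. The other 9 genes placed beside it were Arg2, the genes of the polyamine pathway that ornithine feeds, and their regulators. All 10 had probes on the array, 15 probes in all, matched through the RefSeq accession of each probe. All 10 were detected, out of 13899 detected genes among 31926 on the array. Of the 13899, 10963 had a gene symbol. The rest were counted by accession or probe name, so some genes may be counted more than once in the shares and ranks given here. A gene counted as detected where at least 1 pool gave a signal well above background on each array, and each gene was read from its detected probe of highest mean intensity.

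The tissue was the ventral prostate of FVB/N mice (also written FBV/N in the labels) at 6 months of age, by the tissue label. Another label of the same samples speaks of ventral or dorsolateral lobes, so the lobe is not settled by the labels alone. RNA of 6 wild-type mice formed one pool, and RNA of 6 mice with an ARR2PB-miR32 transgene formed the other. ARR2PB is a composite probasin promoter, which is active in the androgen-responsive epithelium of the prostate, so the transgene is not aimed at stromal or immune cells. Both pools were labelled with Cy3 or Cy5 and hybridised together on 2 Agilent whole mouse genome arrays, with the transgenic pool in Cy3 on array 1 and in Cy5 on array 2. The arrays hold the same pair of pools, so they are technical replicates, each genotype had 1 replicate, and no test of significance was possible. Each error given is the SD between these arrays (n = 2) and so holds no variation among mice.

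Arginase splits arginine into urea and ornithine. Ornithine decarboxylase turns ornithine into putrescine, and spermidine synthase and spermine synthase extend it to spermidine and spermine with aminopropyl groups from decarboxylated S-adenosylmethionine. The prostate is known for making and secreting polyamines in unusually large amounts, and rodent ventral prostate also secretes a spermine-binding protein. Antizyme, a protein induced by polyamines, sends ornithine decarboxylase to degradation, and antizyme inhibitor blocks antizyme.

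The transgene is named for miR-32, a microRNA that binds messages mainly through its seed, bases 2 to 8. The RefSeq mature sequence (GRCm38.p6) is printed with the seed in capitals, beside a pair of relatives with the same seed. It is printed because the transgene is named for this microRNA, whose level in the pools was not read here. In all, 6 mature mouse microRNAs in the RefSeq table carry this seed. The sequence of the construct itself was not used here.
mmu-miR-32-5p: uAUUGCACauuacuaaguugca
mmu-miR-25-3p: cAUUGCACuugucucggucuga
mmu-miR-92a-3p: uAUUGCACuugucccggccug

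Arg1 stood alone among the 10 genes. It was 7.87-fold higher in the transgenic pool, while the other 9 lay between -0.65 and 0.23 on the log2 ratio scale (transgenic over wild type). To be called, a gene needed a mean difference of at least 2-fold, which is 1 on the log2 scale, and each array had to show 1.5-fold or more with the same sign. By this rule 1 of the 10 genes was higher and 0 were lower, against 1.09% higher and 3.53% lower among all detected genes. The higher gene is Arg1, whose ratio chose the set, so nothing is read from that count. The median log2 ratio of the 10 genes was -0.12, and that of all detected genes was 0.01. Under median centring in place of loess these were 0.02 and 0.06, and in the authors' deposited table -0.22 and 0.003. The sign of the median of the 10 genes thus depends on the scaling.

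Arg1 encodes the cytosolic arginase of the urea cycle in liver, which is also made by some macrophages and epithelia. Its probe (A_51_P303160, NM_007482) read 2381 in Cy3 over a local background of 24 in the transgenic pool of array 1, and 192 in Cy5 over 115 in the wild-type pool. On array 2 the transgenic pool read 949.5 in Cy5 over 116, and the wild-type pool 262.5 in Cy3 over 25. The colours differ in scale and background, so the pools are compared after normalization.

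The log2 normalized intensity of Arg1, which includes the offset of the background correction, was 7.85 and 7.42 in the wild-type pool on arrays 1 and 2. In the transgenic pool it was 10.75 and 10.46. Both transgenic readings lay above both wild-type readings, as they also did for Arg2. All 4 readings of Arg1 were well above background. The log2 ratio was 2.91 on array 1 and 3.04 on array 2, with a mean of 2.98 ± 0.10. This was the 9th highest of the 13899 detected genes. The spread between the arrays was small, since 21.7% of detected genes had a smaller SD and the median SD was 0.24. The ratio was 3.73 with Feature Extraction's own ratios and 3.66 in the authors' deposited table, both over 1.5 times larger as a fold, and 2.84 without background subtraction.

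**Figure D1:**
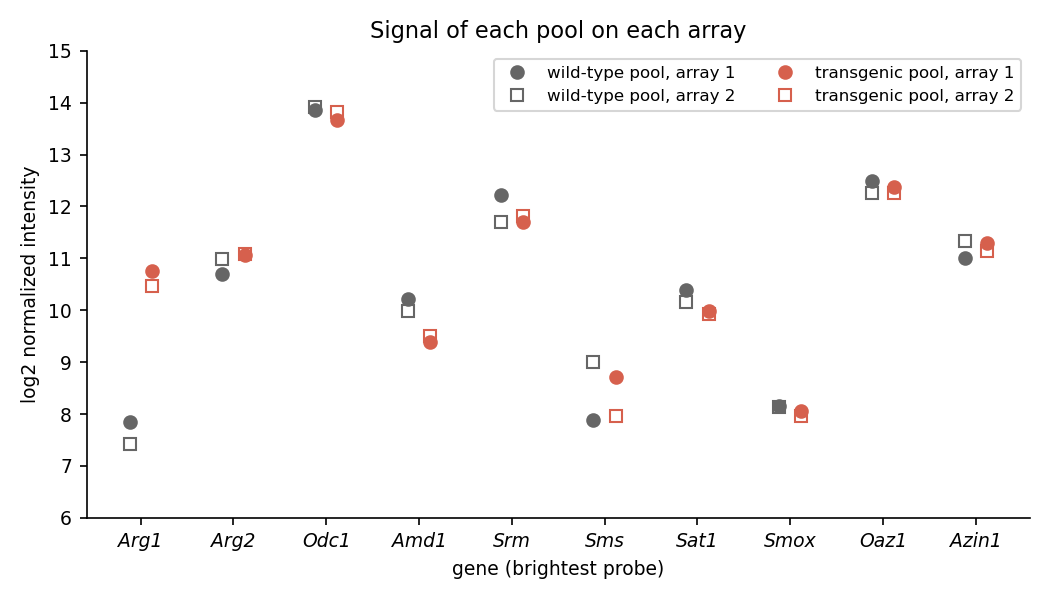
Log2 normalized intensity (vertical axis) of the brightest probe of each of the 10 genes, for the wild-type pool (grey) and the transgenic pool (red) on array 1 (filled circles) and array 2 (open squares). The transgenic readings of Arg1 (10.75 and 10.46) lie above its wild-type readings (7.85 and 7.42), while for Sms the arrays disagree on which pool is higher; levels of different genes come from different probes and are not comparable.

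Arg2, the mitochondrial arginase, differed far less. Its log2 normalized intensity was 10.71 and 10.996 in the wild-type pool on arrays 1 and 2, and 11.07 and 11.09 in the transgenic pool. The transgenic readings were the higher on both arrays, by 0.36 and 0.09, which gave a mean log2 ratio of 0.23 ± 0.19. Of all detected genes, 59.6% had a smaller mean ratio in size. Arg1 thus passed the rule, and Arg2 stood at 1.17-fold.

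None of the 4 synthesis genes was called (0 higher and 0 lower). Odc1 encodes ornithine decarboxylase, the enzyme that makes putrescine. Its log2 normalized intensity was 13.86 and 13.92 in the wild-type pool on arrays 1 and 2, and 13.67 and 13.83 in the transgenic pool. The mean log2 ratio was -0.14 ± 0.07, which turned to 0.09 under median centring in place of loess. Its dimmer probe read -0.68 on array 1 and 0.27 on array 2, with a mean of -0.21 ± 0.67. Odc1 thus showed no difference that held across probes and scalings.

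Amd1 encodes S-adenosylmethionine decarboxylase, which supplies the aminopropyl groups. Its log2 normalized intensity was 10.22 and 9.98 in the wild-type pool on arrays 1 and 2, and 9.39 and 9.50 in the transgenic pool. Both transgenic readings lay below both wild-type readings, as they also did for Odc1, Sat1 and Smox. The log2 ratio was -0.83 on array 1 and -0.48 on array 2, with a mean of -0.65 ± 0.25, or 1.57-fold lower. It was short of a call, but 90.5% of detected genes had a smaller mean ratio in size. Amd1 was below 0 under each processing alternative that was run, though some of these could not change its ratio. Under a looser rule of a mean of 1.5-fold with the same sign on both arrays, Amd1 was the only gene of the 10 on the lower side and Arg1 the only one on the higher side, against 7.75% and 3.4% of all detected genes. Amd1 has a close relative, Amd2, whose probe stood at -0.87 ± 0.24, and signal shared between the probes of this family was not checked, so these are not independent readings.

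Srm encodes spermidine synthase. Its log2 normalized intensity was 12.23 and 11.71 in the wild-type pool on arrays 1 and 2, and 11.71 and 11.81 in the transgenic pool. The arrays disagreed in sign, at -0.52 and 0.10, with a mean log2 ratio of -0.21 ± 0.44.

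Sms, the spermine synthase gene, had the least settled ratio of the set. Its brighter probe read 7.89 and 9.01 (log2 normalized intensity) in the wild-type pool on arrays 1 and 2, and 8.72 and 7.95 in the transgenic pool. On each array the pool labelled with Cy3 was the brighter, so the log2 ratio was 0.83 on array 1 and -1.06 on array 2. The mean was -0.11 ± 1.33, and 99.1% of detected genes had a smaller SD between arrays. The dimmer probe of Sms gave 0.32 and 0.17, with a mean of 0.24 ± 0.10. No direction can be given for Sms.

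**Figure D2:**
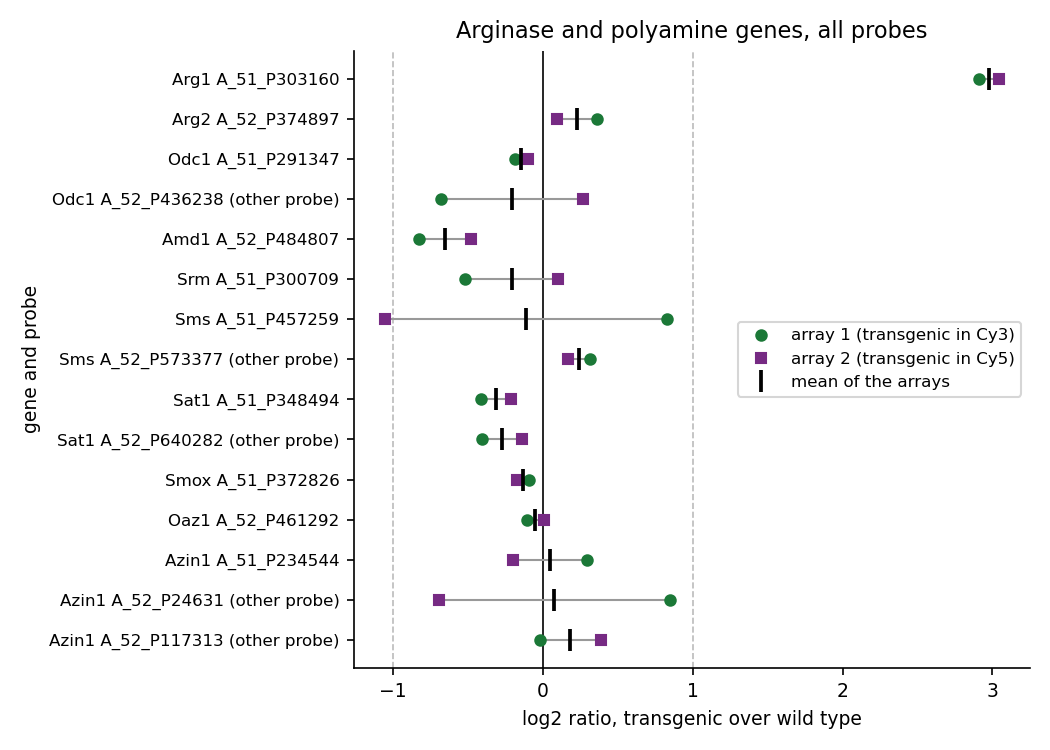
Log2 ratio of transgenic over wild type (horizontal axis) for each of the 15 probes on array 1 (circles) and array 2 (squares), with the mean as a bar and dashed lines at -1 and 1. The Arg1 probe lies near 3 on both arrays (2.91 and 3.04), while the brighter Sms probe and a dimmer Azin1 probe lie on opposite sides of 0 on the arrays.

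The breakdown genes were slightly below 0 on both arrays without a call. Sat1 encodes spermidine/spermine N1-acetyltransferase, which marks polyamines for export or oxidation. Its log2 normalized intensity was 10.40 and 10.15 in the wild-type pool on arrays 1 and 2, and 9.98 and 9.94 in the transgenic pool. Both transgenic readings were below both wild-type readings, as they also were for Odc1, Amd1 and Smox. The share of all detected genes with readings apart in this way was not counted, so nothing is read from it. The mean log2 ratio of Sat1 was -0.32 ± 0.14. The dimmer probe of Sat1 gave -0.27 ± 0.19.

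Smox, the spermine oxidase gene, read 8.15 and 8.14 in the wild-type pool on arrays 1 and 2, and 8.06 and 7.97 in the transgenic pool (log2 normalized intensity). Its mean log2 ratio was -0.13 ± 0.06. Of all detected genes, 39.5% had a smaller mean ratio in size.

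The regulators had means near 0 and opposite signs on the arrays. Oaz1, the gene of antizyme, read 12.49 and 12.25 in the wild-type pool on arrays 1 and 2, and 12.38 and 12.26 in the transgenic pool (log2 normalized intensity), with a mean log2 ratio of -0.05 ± 0.08. Azin1, the gene of antizyme inhibitor, read 11.01 and 11.33 in the wild-type pool, and 11.30 and 11.14 in the transgenic pool, with a mean log2 ratio of 0.05 ± 0.35. A dimmer Azin1 probe gave 0.85 and -0.70 on the arrays, again brighter in Cy3 on each, and another did not clear background in the same pool on both arrays. Antizyme and its inhibitor act on the protein of ornithine decarboxylase, which the arrays do not measure.

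Signs differed between the arrays for 4 of the 10 genes (Srm, Sms, Oaz1 and Azin1), as they did for 48.1% of all detected genes. Of the others, Arg1 and Arg2 were above 0 on both arrays, and Odc1, Amd1, Sat1 and Smox below 0 on both.

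**Figure D3:**
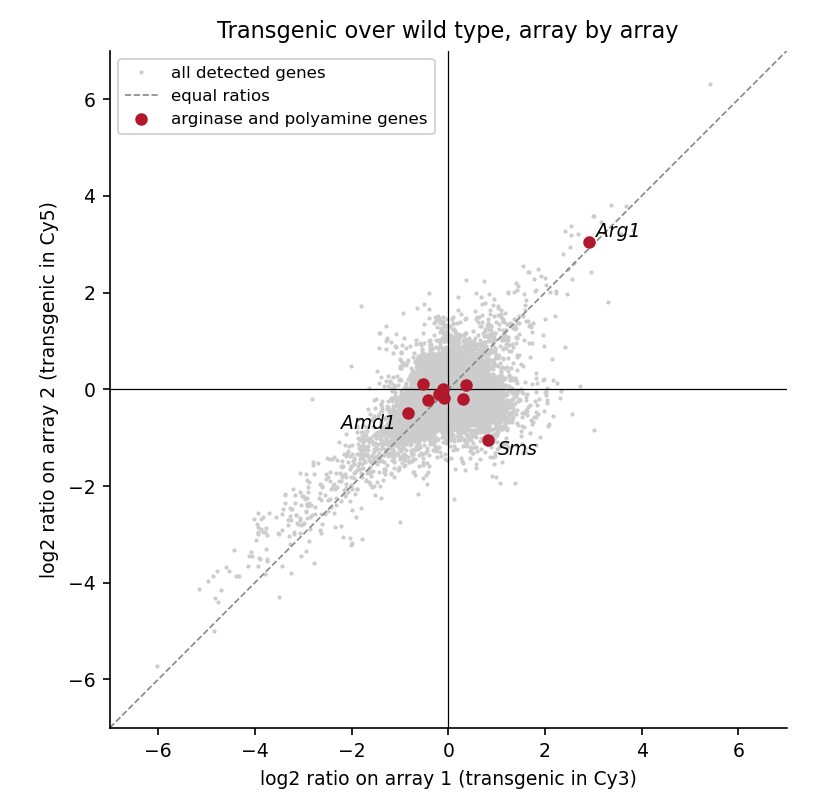
Log2 ratio of transgenic over wild type on array 1 (horizontal axis) against array 2 (vertical axis), for all detected genes (grey) and the 10 arginase and polyamine genes (red), with a dashed line of equal ratios. Arg1 lies near the line at 2.91 and 3.04, Amd1 below 0 on both axes, and Sms off the line at 0.83 and -1.06.

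A wider list of 69 genes of arginine and polyamine metabolism, which holds the 10 genes, had 51 detected members. By the rule Arg1 was the 1 higher gene, and the 2 lower genes were Sbp and Sbpl, where all detected genes had 1.09% higher and 3.53% lower. Apart from the 10 genes, 41 were detected, with 0 higher, 2 lower and a median log2 ratio of -0.10.

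Genes that make arginine stood on the other side of 0 from Arg1. Ass1 (argininosuccinate synthase) joins citrulline to aspartate, and Asl (argininosuccinate lyase) releases arginine from the product. Ass1 was at -0.92 on array 1 and -0.65 on array 2, with a mean log2 ratio of -0.79 ± 0.19. Asl was at -1.04 and -0.31, with a mean of -0.68 ± 0.51. Neither was called. Ass1 met the rule with the ratios of Feature Extraction itself, at -1.02, and in the authors' deposited table, at -1.09. Of the remaining urea cycle genes, Cps1, Otc, Nags and the ornithine carriers Slc25a15 and Slc25a2 were not detected, nor was the arginine transporter Slc7a2.

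Among 9 detected genes of other uses of arginine and ornithine, 0 were called. The lowest was Gatm, the first enzyme of creatine synthesis, at -0.73 ± 0.04. For Gatm the transgenic reading cleared background on array 1 alone, and Feature Extraction's own ratios gave -1.74. The nitric oxide synthases Nos1, Nos2 and Nos3, which compete with arginase for arginine, were not detected.

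In the lists of synthesis (5 genes), breakdown (4), antizymes and their inhibitors (3), methionine supply and salvage (10), hypusine (4) and transport (8), 0 detected genes were called. Synthesis ranged from Amd2 at -0.87 to Sms at -0.11, and breakdown from Sat1 to Sat2, an acetyltransferase relative of Sat1, at 0.04 ± 0.11. The antizyme list ranged from Oaz1 to Oaz2, another antizyme, at 0.16 ± 0.40. In methionine salvage, which recycles the by-product of polyamine synthesis, Mtap was the lowest at -0.42 ± 0.21 and Mri1 the highest at 0.44 ± 0.39. Hypusine, a modification of Eif5a made from spermidine, had Eif5a at -0.08 ± 1.04 and the hydroxylase Dohh at 0.17 ± 0.05. Of the transporters, Slc7a7, a subunit of a cationic amino acid exchanger, was the lowest at -0.70 ± 0.13. Slc7a7 met the rule for a call with Feature Extraction's own ratios, at -1.12, and in the authors' deposited table, at -1.19, but not under the processing used.

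The called genes on the lower side were Sbp, which encodes a spermine-binding secretion of the prostate, and Sbpl, named for its likeness to Sbp. Whether the product of Sbpl binds spermine was not tested. Sbp, the spermine-binding protein gene, was at -1.74 on array 1 and -0.96 on array 2, with a mean log2 ratio of -1.35 ± 0.55. Its relative Sbpl was at -0.78 and -1.31, with a mean of -1.04 ± 0.38. Under median centring in place of loess both lost the call, at -0.97 and -0.62. Array 2 alone left Sbp at -0.96, and array 1 alone left Sbpl at -0.78, both short of a log2 ratio of 1 in size.

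Under the looser rule of 1.5-fold, 8 of the 51 pathway genes stood on the lower side and Arg1 on the higher side. The 8 were Sbp, Sbpl, Amd1, Amd2, Ass1, Asl, Gatm and Slc7a7. They come from arginine synthesis, creatine synthesis, transport, polyamine synthesis and secretion. Amd1 and Amd2 are not independent readings, and the transgenic reading of Gatm cleared background on array 1 alone. For comparison, the rule took in 7.75% of all detected genes on the lower side and 3.4% on the higher side.

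**Figure D4:**
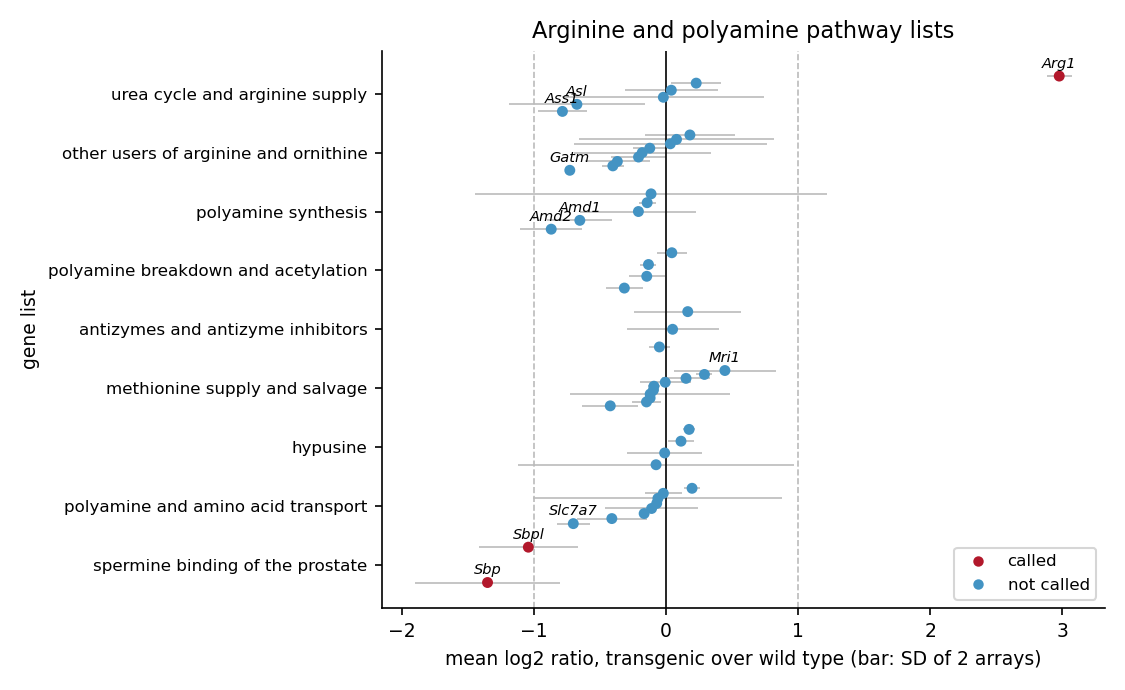
Mean log2 ratio of transgenic over wild type (horizontal axis) for the detected genes of each arginine and polyamine list (rows), with bars for the SD of the 2 arrays, called genes in red and dashed lines at -1 and 1. Arg1 at 2.98 lies apart on the higher side, Sbp and Sbpl are the called genes on the lower side, and Ass1, Asl, Amd1, Amd2, Gatm and Slc7a7 lie between -0.5 and -1.

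Arg1 is also a marker of alternatively activated macrophages, so genes of that state were read beside it. Of 10 such genes 6 were detected, with 0 higher and 2 lower, against 1.09% and 3.53% of all detected genes. Il4ra and Cd163 passed the detection filter through the wild-type pool alone, so the filter favoured their lower ratios and their direction is not read as a result. Clec10a, a lectin of these cells, was lower at -1.54 ± 0.05, as was the interleukin 4 receptor gene Il4ra at -1.07 ± 0.09, whose transgenic reading cleared background on array 1 alone. The mannose receptor Mrc1 stood at -0.58 ± 0.39, and Chil3 was not detected. Retnla stood at -0.55 ± 0.01 by its brighter probe, while the other probe read 2.86 on array 1 and -0.84 on array 2. The summed normalized intensity of the 6 genes was 12855 to 12865 in the wild-type pool and 8181 to 8401 in the transgenic pool, most of it from Retnla. Without Retnla the sums were 2576 to 2579 and 1213 to 1342.

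Of 10 detected general macrophage and myeloid genes, 7 were lower and 0 higher, against 3.53% and 1.09% of all detected genes. All 10 were below 0 on both arrays, as were 27.3% of all detected genes. The median log2 ratio of the 10 was -1.45. For Fcgr1 and Cx3cr1, which are not among the 7, the transgenic reading cleared background on array 1 alone. They passed the detection filter through the wild-type pool alone, so their direction is not read as a result. The others were measured in both pools on both arrays. Among the 7 is Mpeg1, at -1.51 by its brighter probe and 0.19 by the other. Adgre1, the F4/80 antigen, was at -1.39 ± 0.56. Their summed intensity was 10919 to 13825 in the wild-type pool and 3349 to 3579 in the transgenic pool. Of the 2 detected neutrophil genes S100a9 was lower, at -2.40 ± 0.14, and S100a8 was not called, at -1.05 ± 0.73. For both, the transgenic reading cleared background on array 1 alone. Both passed the detection filter through the wild-type pool alone, so their direction is not read as a result. Mpo, Elane, Cxcr2, Camp and Ngp were not detected. Arg1 was thus higher in the pool in which these markers were lower. In pooled tissue, fewer cells of a type and less RNA per cell cannot be told apart, and which cells carried the Arg1 signal was not tested.

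Of 7 hepatocyte genes with a probe, among them Alb, Apoa1 and Ttr, 0 were detected. Of 8 luminal epithelial genes, all detected, 0 were called, with a median log2 ratio of 0.09 and a summed intensity of 80528 to 90712 in the wild-type pool and 83449 to 100419 in the transgenic pool. The 5 basal genes had a median of -0.43 with 0 called and sums of 7957 to 8881 and 5943 to 6429, and of the squamous list Krt10 alone was detected, at -0.34 ± 0.01, with intensities of 133 to 137 and 104 to 108 and a transgenic reading that cleared background on array 1 alone.

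Beside the tissue label, 6 genes listed as ventral prostate products were read, of which 5 were detected and Mup4 was not. Whether the genes of these lists tell the lobes apart was not tested. Spink1, a secreted trypsin inhibitor, was at -5.88 ± 0.21 beside the lower Sbp and Sbpl. Probasin (Pbsn) was at 0.02 ± 0.50 and Msmb at -0.20 ± 1.11, each with opposite signs on the arrays. The summed intensity of the 5 genes was 1095292 to 1197690 in the wild-type pool and 364690 to 450199 in the transgenic pool. Spink1 was the brightest of them in the wild-type pool, at 18.84 and 18.69 (log2 normalized intensity), against 12.81 and 12.96 in the transgenic pool. The lower sum thus does not hold for each of the 5. Of the genes listed for the seminal vesicle or other lobes, 4 were detected. Tgm4 was higher at 2.12 ± 0.14. Sval1, whose wild-type reading cleared background on array 2 alone, was higher at 2.43 ± 0.20. Ceacam10 was lower at -2.60 ± 0.36. The sums were 62937 to 86835 in the wild-type pool and 50322 to 72162 in the transgenic pool. Nearly all of these sums came from 9530002B09Rik, at -0.31 ± 0.73, and without it they were 1196 to 1705 and 1388 to 1847. The seminal vesicle genes Svs2, Svs4 and Svs5 were not detected. The part of lobe make-up in the Arg1 ratio was not tested.

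With 1 comparison, likeness to Arg1 could be measured only as the distance between pairs of array ratios. The 5 nearest genes with a symbol were Fxyd4, a regulator of the sodium pump, Cox8b, a cytochrome oxidase subunit, Tac1, the precursor of substance P, Ang, a secreted ribonuclease, and Ucp1, the uncoupling protein of brown fat. Fxyd4, Tac1 and Ang, measured in both pools on both arrays, lay 0.28, 0.40 and 0.49 log2 units from Arg1, with mean log2 ratios of 2.94, 2.73 and 3.31. For Cox8b and Ucp1 the wild-type reading cleared background on array 2 alone, so their computed distances of 0.39 and 0.49 are not exact and have no order among the 5.

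**Figure D5:**
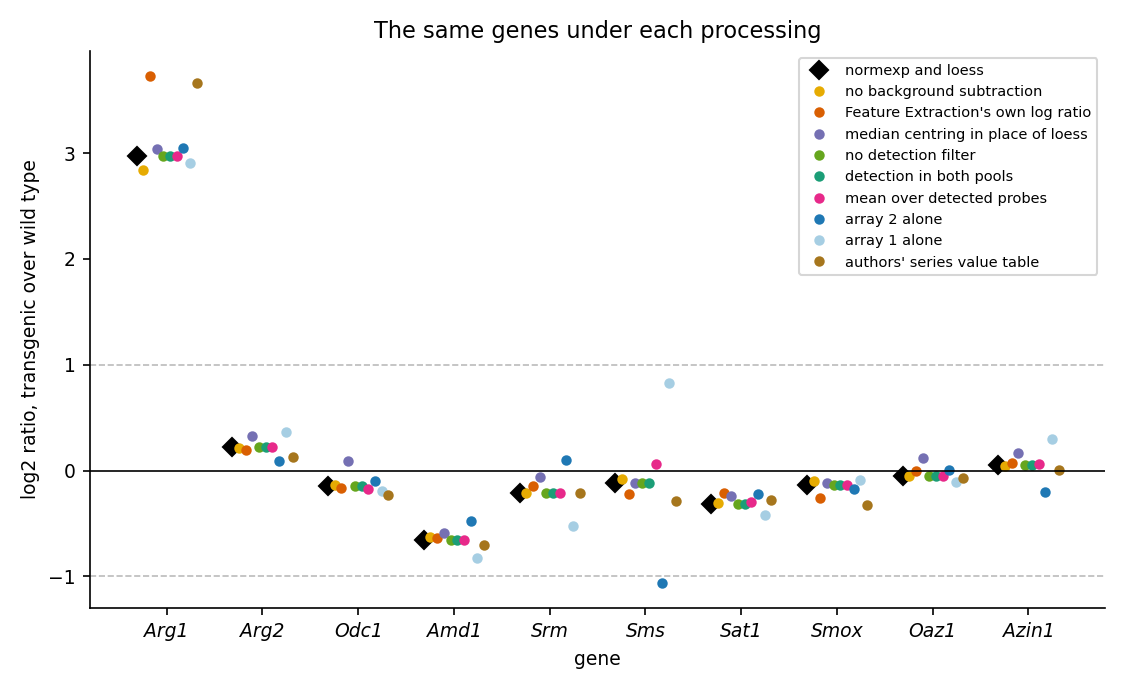
Log2 ratio of transgenic over wild type (vertical axis) of the 10 genes under the processing used (black diamonds) and 9 alternatives (circles), with dashed lines at -1 and 1. Arg1 lies between 2.84 and 3.73 throughout and Amd1 between -0.83 and -0.48, while Odc1, Srm, Sms, Oaz1 and Azin1 cross 0.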

How the data were processed

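The deposited scanner files come from Agilent's Feature Extraction software (version 11.0.1.1) and give, per the file headers, spot and local background intensity for Cy3 and Cy5 as median pixel values, processed intensity, and a log10 ratio of red over green. The authors' deposited table of the whole series holds log2 ratios of 15511 probes. Its scale and direction, unstated, were read off by setting it against the scanner files (r = 0.99994 and 0.99997 with transgenic over wild type, column medians of 0).

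The normexp method with an offset of 50 removed background, and a loess curve per array normalized the ratios (limma 3.58.1, R 4.3.3), checked on simulated data. Control spots and outlier spots (448 and 299) had weight 0 in the loess. Median signals were used, since these are the spot signals the files give. Repeat spots were averaged after outliers were left out, and probes needed a spot on both arrays, which left 41079. Pool intensities are after loess and Aquantile normalization. No spot of the 10 genes was saturated. Of the probes, 27760 matched a RefSeq symbol (GRCm38.p6, used for names alone since the array's build is mm9). With 1 replicate per genotype no p-value was computed, and the number of arrays limits the precision.

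The genes and lists were chosen with earlier results of these data known. Beside the 10 genes, the rule named each pathway list's called genes and its highest and lowest gene. Marker genes were named as examples. The highest gene of 2 lists is not reported here. Other genes, Asl among them, were named after their values were seen. Alternatives changed the background correction, the normalization, the detection filter, the probe rule, the array and the rule for a call.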

Additional observations from a re-analysis of the deposited data

How the results depend on the processing

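Arg1 was called higher under each of the 10 alternatives, with a log2 ratio of 2.84 without background subtraction, 3.73 with Feature Extraction's own ratios and 3.66 in the authors' deposited table, against 2.98. No other gene of the 10 was called except Sms on array 2 alone and Amd1 under the 1.5-fold rule. That made 0 to 1 lower genes on single arrays and 1 under the 1.5-fold rule. Amd1, Sat1 and Smox stayed below 0, and Arg2 above 0, under the 9 alternatives that gave a ratio. Arg1, Arg2, Amd1 and Smox have 1 matched probe each, detected in both pools. For these genes neither the detection filter nor the probe rule could change the ratio, so those alternatives are no check on them. Each array alone is a part of the mean itself. Of the pathway genes 2 were lower, but 5 with Feature Extraction's ratios, 4 in the deposited table, 8 under the 1.5-fold rule and 0 under median centring. Of all detected genes 151 were higher and 491 lower. These were 309 and 938 with Feature Extraction's ratios and 472 and 1077 under the 1.5-fold rule. There were 99 higher genes under median centring, 267 lower genes with detection in both pools, and 271 to 450 higher genes on single arrays. The causes were not tested. Signal over background limits the dim probes, such as the wild-type reading of Arg1 in Cy5 (192 over 115).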

Other observations

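Probes of the same gene gave different mean log2 ratios for some genes of these lists. Retnla, a marker of alternatively activated macrophages, gave -0.55 by its brighter probe and 1.01 by the other, which read 2.86 on array 1 and -0.84 on array 2. Mpeg1, a macrophage gene, gave -1.51 and 0.19, where the other probe had opposite signs on the arrays. Aif1 gave -1.79 and -1.02, which share a direction. Among pathway genes, Paox, which oxidises acetylated polyamines, gave -0.15 and 0.07, and Enoph1, of methionine salvage, gave -0.15 and 0.10. For Paox and Enoph1 the other probe had opposite signs on the arrays, so no disagreement between probes is shown. Arg1, Arg2, Amd1, Srm, Oaz1 and Smox have 1 probe each that matched, so their ratios have no check by another probe.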
